A study of Mus musculus with 127 samples.

Results

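Transcripts of 8 genes of the nuclear lamina and inner nuclear membrane were followed through single mouse bone marrow cells, most of them in classes named for granulocyte precursors. The genes are Lbr, Lmnb1, Lmnb2, Lmna, Emd, Tmpo, Sun2 and Banf1, picked by name from a table of 23946 genes, and all 8 had a row. All cells came from wild-type C57BL/6 mice. Marrow from crushed hindlimbs was enriched with CD117 beads, and single cells were captured on a Fluidigm C1 chip after sorting. The labels place the cells in 3 sorted gates, each called CD11b+ GMP-P: 46 cells of a Ly6g high gate, 41 of a Ly6g low gate and 40 of a gate labelled CD11b+ with no Ly6g level. The labels name no treatment, age or individual mouse. A deposited list also gave each cell 1 of 11 class names. The way the classes were made is not given in the sources used here, so they may rest on these genes in part. Besides Myelo and Gran classes they include 7 HSCP-2, 5 Mono, 1 Eryth, 1 MDP and 1 Multi-Lin cell. The MDP cell held basophil and mast cell genes at a summed 220967.5 TPM, which goes against its class name.

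The nuclear lamina is a meshwork of lamin proteins under the inner nuclear membrane, and membrane proteins such as the lamin B receptor tie it to heterochromatin. Granulocyte nuclei become ring-shaped or segmented as they mature, and mature neutrophils are known for much lamin B receptor and little lamin A/C. In humans and mice, loss of LBR leaves neutrophil nuclei poorly lobed. The envelope is also taken apart and rebuilt at each division, and LAP2 proteins and the DNA-bridging factor BAF act in that rebuilding.

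Values are in TPM, a length-corrected share of each cell's transcripts, so levels can be set against each other between genes. A gene was counted as detected in a cell at 1 TPM or more. Each library is 1 cell, and since no animal is named, a gate counts as a single sample. No test between gates or classes was possible, so differences are described by size only. Bounds given for shares are exact 95% binomial (Clopper-Pearson) intervals and cover counting error only. The median number of genes detected was 1695 for Ly6g high cells (966 to 4679), 2521 for Ly6g low cells (1159 to 5058) and 2464.5 for CD11b+ cells (821 to 5173). Read depth per cell is unknown, and even widely expressed genes were often listed at 0 (Hprt in 36 cells, Polr2a in 50 and Tbp in 99). The order of Ly6g followed the labels of the Ly6g gates, with a mean level of 936, 353 and 171 TPM in the Ly6g high, Ly6g low and CD11b+ gates. Itgam, the gene for CD11b, averaged 228, 112 and 66.9 TPM and was detected in 41 of 46, 37 of 41 and 27 of 40 cells, so it was lowest in the gate named for CD11b alone. Kit, the gene for CD117, was detected in 6, 9 and 19 cells. Summed specific granule genes had medians of 194504.5, 219101.5 and 54545 TPM. Summed lymphoid, erythroid and megakaryocyte markers had medians of 0 TPM in all 3 gates. The cell names give no capture plate, and gate and plate cannot be told apart.

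Lbr stood far above the other members. It codes for the lamin B receptor, a multi-pass inner membrane protein that binds B-type lamins and heterochromatin and also carries sterol reductase activity. Lbr averaged 476 TPM over all cells, rank 196 among the 23946 genes. It was detected in 122 cells of the 3 gates together (96.1%, 91.1 to 98.7), one of 101 genes found in at least that share of cells. It made up 57.8% of the summed TPM of the 8 genes.

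Banf1 and Tmpo came next. Banf1 codes for BAF, the small chromatin protein that bridges DNA and LEM-domain membrane proteins. It averaged 198 TPM (rank 482) and was detected in 78 cells. Tmpo codes for the LAP2 family of lamina-associated polypeptides, which bind BAF through a LEM domain. It averaged 120 TPM (rank 785) and was also detected in 78 cells (61.4%, 52.4 to 69.9). Both were present in 60 cells and neither in 31. Both spread more widely than Lbr on the log scale: between the lower and upper quartiles, cells ran from 0.105 to 150.3 TPM for Tmpo and from 0 to 317 TPM for Banf1, against 213 to 639 TPM for Lbr.

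Sun2 was low and the lamins were scarce. Sun2, an inner membrane protein that links the lamina to the cytoskeleton through nesprins, averaged 18.8 TPM and was detected in 66 cells. Lmnb2, a B-type lamin, averaged 7.70 TPM and was detected in 26 cells (20.5%, 13.8 to 28.5). The other B-type lamin, Lmnb1, averaged 1.28 TPM, with 11 cells above the detection level and a highest value of 58.3 TPM. Emd, which codes for the LEM protein emerin, averaged 1.25 TPM and was detected in 15 cells. Lmna, the source of lamins A and C, was detected in 0 cells, and its highest value was 0.13 TPM. At this depth the low lamin values do not show that the transcripts were absent.

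In the Ly6g high gate, mean Lbr was slightly lower in Myelo-4 than in Myelo-2 cells, while mean Banf1 and Tmpo were far lower. Because of this difference in size, promoter sequences are shown for these 3 members, which had the highest levels. Each is the first listed RefSeq window of GRCm38.p6, 250 bases before to 50 after the gene's start, read 5′ to 3′ on the gene's strand (minus for all 3). The expression table was made on another build (mm9), so the coordinates belong to RefSeq alone. Capitals mark CCAAT boxes and, in Lbr, the reverse complement of a CHR element, 2 kinds of motif common in promoters of cell cycle genes.
Lbr, chr1:181842352-181842651: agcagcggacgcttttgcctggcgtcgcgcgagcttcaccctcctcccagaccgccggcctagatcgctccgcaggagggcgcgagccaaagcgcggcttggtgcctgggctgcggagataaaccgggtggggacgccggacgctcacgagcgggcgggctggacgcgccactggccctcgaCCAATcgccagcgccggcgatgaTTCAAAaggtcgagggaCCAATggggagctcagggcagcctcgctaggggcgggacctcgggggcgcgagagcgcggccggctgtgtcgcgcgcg
Tmpo, chr10:91171570-91171869: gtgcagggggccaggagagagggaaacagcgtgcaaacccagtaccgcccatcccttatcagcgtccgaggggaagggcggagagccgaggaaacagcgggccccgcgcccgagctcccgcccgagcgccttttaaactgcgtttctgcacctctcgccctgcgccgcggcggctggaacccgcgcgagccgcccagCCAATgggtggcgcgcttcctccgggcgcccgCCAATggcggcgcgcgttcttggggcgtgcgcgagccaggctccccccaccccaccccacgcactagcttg
Banf1, chr19:5366827-5367126: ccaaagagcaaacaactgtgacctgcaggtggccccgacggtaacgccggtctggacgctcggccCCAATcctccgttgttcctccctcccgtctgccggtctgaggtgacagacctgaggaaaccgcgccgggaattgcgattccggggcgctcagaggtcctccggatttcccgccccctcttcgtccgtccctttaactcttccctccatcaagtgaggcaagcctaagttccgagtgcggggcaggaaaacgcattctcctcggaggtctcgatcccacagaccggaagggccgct
The letters CCAAT occurred 2 times in the Lbr window, 2 times in that of Tmpo and 1 time in that of Banf1, counting both strands. They also occurred in 37.4% of all 32851 RefSeq promoter windows. A CHR element (TTTGAA or TTCGAA) was matched 1 time in the Lbr window and in 19.2% of all windows. The second listed window of Tmpo and the window of Sun2, not shown, each held 1 CHR match too. An E2F motif (TTNGCGC) was found in none of the windows shown, 1 time in the second Tmpo window and 1 time in the first Lmnb2 window, and in 6.36% of all windows. A C/EBP motif (TTGCNNAA) was found in none of the 11 windows of the 7 members matched and in 10.8% of all. No 2 of these motifs overlapped in the windows shown.

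Across the gates, Lbr stayed close by mean and by median. In the Ly6g high gate its lowest, median and highest values were 0, 342 and 1530.1 TPM. In the Ly6g low gate they were 0.18, 424 and 1538 TPM, and in the CD11b+ gate 0, 409 and 3280.3 TPM. The 3 gates overlapped over almost their whole range, and Lbr was detected in 44 of 46, 40 of 41 and 38 of 40 cells. Log2 ratios of mean TPM, after adding 1 TPM to both sides, were -0.26 for Ly6g high over Ly6g low, -0.03 for CD11b+ over Ly6g low and 0.23 for CD11b+ over Ly6g high. The medians over all measured genes were -0.29, 0.48 and 0.83 in the same order. With means of log2(TPM + 1), the Lbr differences were -0.99, -0.71 and 0.28. On that scale the medians over all measured genes were -0.80, 0.07 and 0.90.

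**Figure D1:**
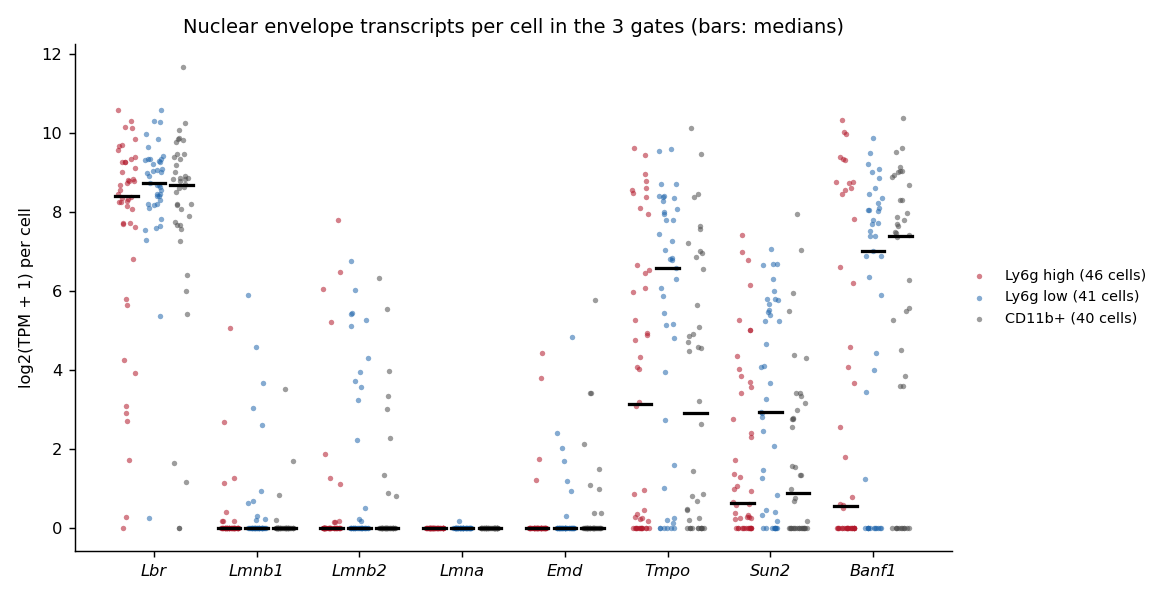
Level of each of the 8 genes in every cell, as log2(TPM + 1) on the vertical axis, with 1 point a cell, 1 colour a gate and black bars at the medians. Lbr sits high in nearly all cells of the 3 gates, Tmpo, Sun2 and Banf1 spread from 0 upward, and Lmna lies at or near 0 throughout.

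Tmpo and Banf1 differed between the gates in how many cells carried them. The Tmpo median was 7.84 TPM in Ly6g high cells (0 to 787), 95.1 TPM in Ly6g low cells (0 to 774) and 6.71 TPM in CD11b+ cells (0 to 1131). It was detected in 24 of 46, 32 of 41 and 22 of 40 cells. Means differed less, at 109, 158 and 94.5 TPM.

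The Banf1 median was 0.46 TPM in Ly6g high cells (0 to 1296), 129.5 TPM in Ly6g low cells (0 to 939.7) and 167 TPM in CD11b+ cells (0 to 1335). The Ly6g high gate thus had the lowest median, with 20 of 46 cells positive, against 29 of 41 and 29 of 40 cells. Its mean of 178 TPM was still close to the 193 TPM of Ly6g low, since the positive cells were high. Sun2 had medians of 0.545, 6.66 and 0.835 TPM and means of 14.8, 26.9 and 14.9 TPM in the same order of gates, so that Ly6g low stood highest.

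No member passed 2-fold between the Ly6g high and low gates among the 5 that were measured, where measured means that one gate or the other had the gene at 1 TPM or above in 25% of its cells or more. Of all 3983 genes measured there, 7.96% were 2-fold or more higher in Ly6g high and 23.7% were lower. The log2 ratios were -0.53 for Tmpo, -0.82 for Sun2, -0.12 for Banf1 and -0.08 for Lmnb2, beside a median of -0.29 over all measured genes. The scale mattered: with the mean of log2(TPM + 1) in each gate, which weighs the number of positive cells, the differences were -1.76 for Tmpo, -1.27 for Sun2 and -1.93 for Banf1, against -0.99 for Lbr and a median of -0.80 over all measured genes. The number of genes detected per cell differed between these gates in the same direction, and its part was not tested. Leaving out the 13 Myelo-4 cells of the Ly6g high gate was a choice made after seeing the data. The log2 ratio was then -0.07 for Tmpo and 0.36 for Banf1, on the scale of mean TPM only. By detection, 16 of the 33 remaining cells held both genes, 7 Tmpo alone, 3 Banf1 alone and 7 neither. In Ly6g low these numbers were 26, 6, 3 and 6 of 41 cells, so the Banf1 ratio does not describe the number of positive cells.

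Between CD11b+ and Ly6g low, 1 of 5 measured members, Lmnb2, passed 2-fold, in the lower direction (4.09 against 9.67 TPM, log2 ratio -1.07). The background was 30.3% of genes higher and 7.83% lower. A single cell held 49.03% of the Lmnb2 sum in CD11b+, so this value rests on few cells. Lmnb2 passed the filter through Ly6g low alone (12 of 41 against 7 of 40 cells), the side where it was higher, so the count supports nothing by itself. Between CD11b+ and Ly6g high, 0 of 4 measured members passed 2-fold, where 44.5% of genes were higher and 6.93% lower.

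Within the main class, Myelo-2, which held 27, 31 and 14 cells of the Ly6g high, Ly6g low and CD11b+ gates, Lbr averaged 458, 479 and 480 TPM. The differences between these means were far smaller than the spread of the cells within a gate. For Ly6g high over Ly6g low, 0 of 5 measured members passed 2-fold (background 13.1% higher, 19.8% lower). Banf1 was at 268 against 169 TPM by mean but at 15.8 against 80.4 TPM by median, with 15 of 27 against 21 of 31 cells positive, so it had no stable direction. Sun2 was at 20.4 against 29.2 TPM by mean. For CD11b+ over Ly6g low, 1 of 5 passed, in the lower direction (background 17% higher, 23.4% lower). This was Sun2, at 5.70 against 29.2 TPM (log2 ratio -2.17), detected in 4 of 14 against 21 of 31 cells. The sum in CD11b+ came 76.9% from 1 cell.

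Of the 8 comparisons made, Myelo-4 over Myelo-2 within the Ly6g high gate held the lowest log2 ratios of any measured member. These were those of Banf1 and Tmpo, on 13 against 27 cells of the same gate. The summed level of 7 late neutrophil genes (Mmp8, Mmp9, Retnlg, Cxcr2, Il1b, Trem1 and Fpr2) averaged 14631 TPM in Myelo-4 and 763 TPM in Myelo-2. Most of the Myelo-4 sum was Retnlg (11124 TPM) and Mmp8 (2277 TPM), and 1 of the 7 genes was at 0 in all 13 cells. Lbr was present in every Myelo-4 cell. It ran from 7.45 to 1530.1 TPM in Myelo-4, with a median of 331, and was detected in 13 of 13 cells (75.3% to 100%). In Myelo-2 it ran from 0 to 1262 TPM, with a median of 353, and was detected in 26 of 27 cells. The classes overlapped over most of their range, and the log2 ratio of the means (407 and 458 TPM) was -0.17.

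Tmpo and Banf1 were near 0 in Myelo-4. Tmpo ran from 0 to 28.4 TPM with a median of 0 in Myelo-4, and from 0 to 787 TPM with a median of 62.6 in Myelo-2. It was detected in 1 of 13 cells (0.195% to 36.03%) against 19 of 27 (49.8% to 86.2%). The means were 2.27 and 155 TPM, a log2 ratio of -5.58. Banf1 ran from 0 to 2.45 TPM in Myelo-4 and from 0 to 1296 TPM in Myelo-2, with medians of 0 and 15.8 TPM. It was detected in 1 of 13 against 15 of 27 cells, and the means were 0.221 and 268 TPM (log2 ratio -7.78). For both genes the Myelo-2 range took in that of Myelo-4, since many Myelo-2 cells were at 0 or at low values as well.

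Lbr thus made up 96.7% of the summed TPM of the 8 genes in Myelo-4 and 49.9% in Myelo-2. By mean TPM it ranked 147 among all genes in Myelo-4, whereas Banf1 went from rank 244 in Myelo-2 to 5109 in Myelo-4 and Tmpo from 481 to 3789. Sun2 was at 9.94 against 20.4 TPM (log2 ratio -0.97) and was detected in 2 of 13 against 17 of 27 cells. One cell held 96.8% of its Myelo-4 sum, and the mean of the other cells was 0.34 TPM. Lmnb2 was detected in 0 of 13 against 6 of 27 cells, Lmnb1 in 0 against 3 and Emd in 1 against 3.

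Of the 8 members, 4 were measured in this comparison, with 0 higher and 2 lower. Over all 3105 genes measured, 13.7% were higher and 45.3% lower in Myelo-4, with a median log2 ratio of -0.75. Tmpo, Sun2 and Banf1 passed the filter through Myelo-2 alone, so a lower mean in Myelo-4 was built into that choice for them and their count supports nothing by itself. Lbr passed through both classes. Lbr was one of 112 genes detected in all 13 Myelo-4 cells, and 91 of these were found in at least as large a share of Myelo-2 cells as Lbr.

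Myelo-4 cells also had fewer genes detected, a median of 1318 against 2030. Among cells with 1000 to 1700 genes, a range chosen after seeing the data, 10 Myelo-4 and 8 Myelo-2 cells remained. Lbr was then at 332 against 328 TPM. Tmpo was at 2.90 against 44.7 TPM and Banf1 at 0.287 against 124 TPM, log2 ratios of -3.55 and -6.61. In these cells the Myelo-2 means of Tmpo and Banf1 came from 3 and 2 of the 8 cells, and the medians were 0.87 and 0.25 TPM, against 0 in Myelo-4. The number of Tmpo- or Banf1-positive cells was 1 of 10 for each gene in Myelo-4. The sets were not fully matched, with a median of 1375 genes in Myelo-4 and 1555 in Myelo-2, and the part of gene number in the difference was not tested.

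**Figure D2:**
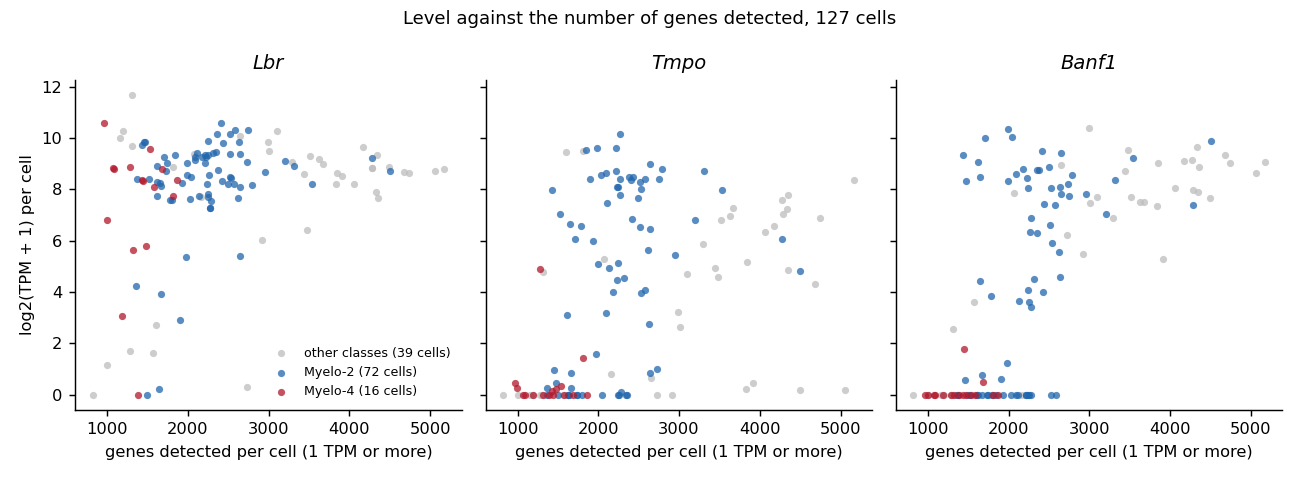
Level of Lbr, Tmpo and Banf1 as log2(TPM + 1) on the vertical axes against the number of genes detected in the same cell on the horizontal axes, with 1 point for each cell. The 13 Ly6g high and 3 CD11b+ Myelo-4 cells lie at the left, where Lbr is mostly high and Tmpo and Banf1 lie near 0. Banf1 is at or near 0 in many Myelo-2 cells of low gene number as well.

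The 3 Myelo-4 cells of the CD11b+ gate also had little Tmpo and Banf1, and their Lbr was lower. Lbr was at 0, 213 and 271 TPM in them, against a mean of 480 TPM in the 14 Myelo-2 cells of that gate. Tmpo was at 0, 0 and 1.73 TPM, and Banf1 was listed at 0 in all 3. However, 1 of the 3 cells held 7 monocyte genes at a summed 2959.6 TPM, which goes against its class name. The highest such sum in the 13 Myelo-4 cells of Ly6g high was 0.34 TPM.

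Myelo-3, the other class of few detected genes (9 cells, median 1282), behaved differently from cell to cell. Its Lbr levels were 2.30, 5.50 and 822 TPM in the Ly6g high gate, 1013 and 1242 TPM in Ly6g low, and 0, 1.22, 467 and 3280.3 TPM in CD11b+. The class mean of 759 TPM was the highest of any class with 4 or more cells, but 1 cell held 48.01% of the sum and the mean without it was 444 TPM. Banf1 was detected in 1 of these 9 cells, at 4.88 TPM. Tmpo was detected in 3, at 26.3, 697 and 715 TPM.

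**Figure D3:**
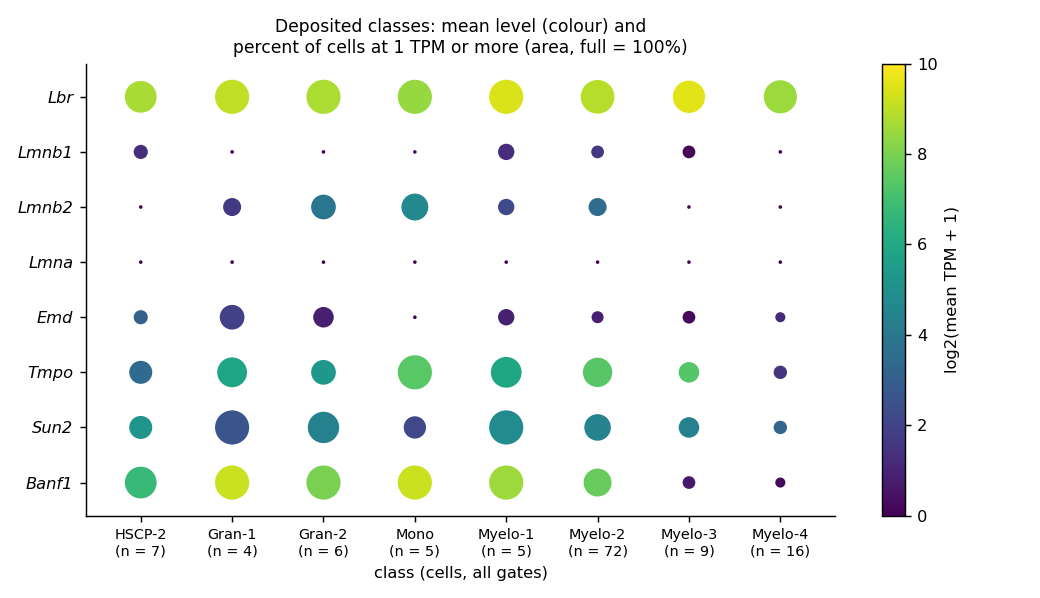
The 8 genes in the 8 classes of 4 or more cells, all gates together, with colour for log2(mean TPM + 1) and dot area for the percent of cells at 1 TPM or more. Lbr has a high mean and is widely detected in every class shown, though Myelo-3 and HSCP-2 also hold cells with little Lbr. Banf1 is near 0 in Myelo-3 and Myelo-4 but well detected in the Mono, Gran-1, Gran-2 and Myelo-1 cells.

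In order of class means, Lbr ran from 759 TPM in Myelo-3 through 691 in Myelo-1, 532 in Gran-1, 471 in Myelo-2, 428 in Gran-2, 413 in HSCP-2 and 361 in Myelo-4 to 337 TPM in Mono. Neighbours in this order overlapped in their cells. Banf1 was highest in Mono, at 592 TPM (470 to 794 over 5 cells), and in Gran-1, at 588 TPM, though 1 of the 4 Gran-1 cells held 56.8% of the sum and the mean without it was 339 TPM. It was at 373 TPM in Myelo-1, 251 in Gran-2, 204 in Myelo-2 and 106 in HSCP-2, and then at 0.542 in Myelo-3 and 0.179 in Myelo-4. The Mono cells did not overlap those of Gran-2 (163 to 393 TPM), although those of Gran-1 did. Tmpo was highest in Mono (167 TPM), Myelo-2 (164) and Myelo-3 (160), was at 59.8 TPM in Myelo-1, 56.6 in Gran-1 and 39.4 in Gran-2, and was at 9.80 in HSCP-2 and 1.95 in Myelo-4. Without their highest cell the Tmpo means were 12.6 TPM in Gran-1, 21.4 in Gran-2, 90.4 in Myelo-3, 5.15 in HSCP-2 and 0.19 in Myelo-4.

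Gran-1 and Gran-2, which were set against Myelo-2 within the CD11b+ gate (8 against 14 cells), had Banf1 in every cell. The 4 Gran-1 cells held 37.6, 413, 565 and 1335 TPM, and the 4 Gran-2 cells 163, 201, 234 and 252 TPM. Myelo-2 ran from 0 to 531.5 TPM with 11 of 14 cells positive, so the ranges overlapped. The means were 400.1 and 157 TPM (log2 ratio 1.34). Sun2, at 11.97 against 5.70 TPM, was detected in 8 of 8 against 4 of 14 cells. Lbr was at 498 against 480 TPM. Tmpo was at 48.01 against 136 TPM, but 1 Myelo-2 cell held 59.3% of that sum and the mean without it was 59.7 TPM. Of 6 measured members, 1 was 2-fold or more higher (Banf1) and 2 lower (Tmpo and Lmnb2). Lmnb2, at 2.12 against 6.12 TPM, was detected in 2 of 8 against 3 of 14 cells, and 1 Myelo-2 cell held 80.3 TPM. With means of log2(TPM + 1) its difference was 0.19, in the other direction. Lmnb2 and Emd passed the filter through the Gran cells alone. The background was 55.4% higher and 11.8% lower, with a median log2 ratio of 1.26, and the Gran cells had 4093.5 genes detected at the median against 2259. Banf1 at 1.34 therefore sat near the median gene on the scale of mean TPM, and Lbr at 0.05 sat below it. With means of log2(TPM + 1), Banf1 was at 2.79 and Lbr at 0.35, against a median of 1.37 over all measured genes. On that scale Banf1 sat above the median gene.

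HSCP-2 had 5 cells in the CD11b+ gate. Summed basophil and mast cell genes were at 10 TPM or more in 3 of them (median 564 TPM, highest 4766 TPM). They were at 0 in all 14 Myelo-2 cells of that gate. HSCP-2 showed low Tmpo there. The 5 cells held 0, 0, 0.74, 5.17 and 24.97 TPM, against a Myelo-2 median of 21.98 TPM (0 to 1131), and the log2 ratio of the means was -4.26. Their Lbr levels were 2.10, 63.5, 205, 713 and 1233 TPM, spread over most of the Myelo-2 range of 41.5 to 948 TPM and past it at both ends. Of 4 measured members, 1 was higher (Sun2) and 1 lower (Tmpo), where 51.1% of genes were higher and 28.3% lower. The Sun2 value came 97.0% from 1 cell at 248 TPM, and the mean of the other 4 cells was 1.94 TPM. The summed mitosis genes in these 5 cells had a median of 14.2 TPM (0 to 4941), against 1985 TPM (51.8 to 5343) in Myelo-2. The ranges thus overlapped, and the part of these genes in the low Tmpo was not tested.

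**Figure D4:**
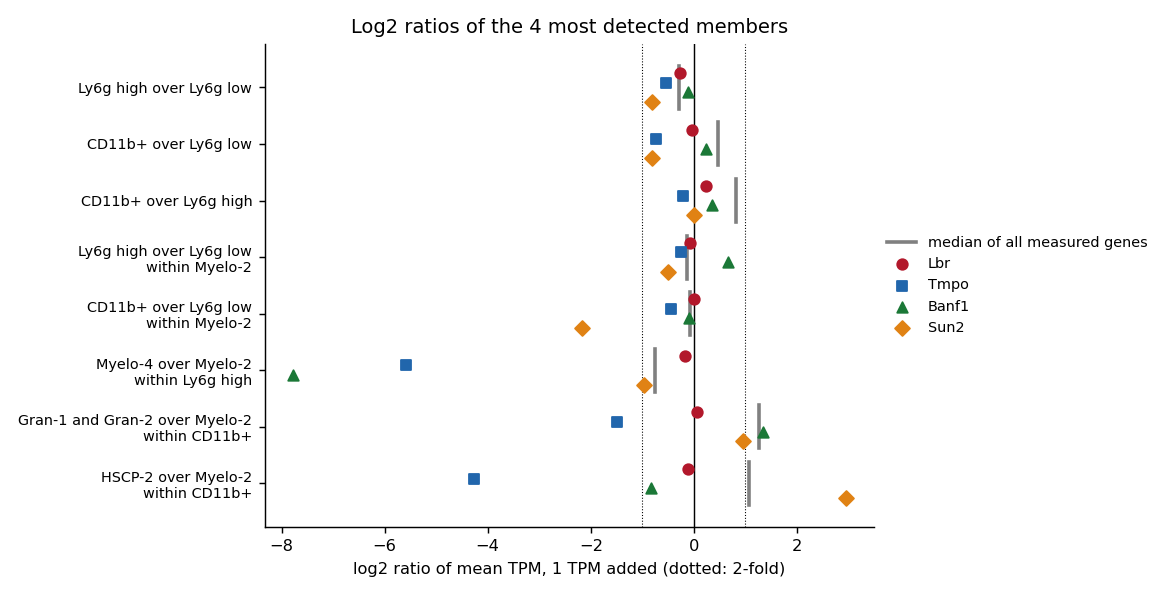
Log2 ratio of mean TPM (1 TPM added) for Lbr, Tmpo, Banf1 and Sun2 in each of the 8 comparisons, with grey bars at the median of all measured genes and dotted lines at 2-fold. Lbr stays between -0.26 and 0.23 in every row, and Tmpo and Banf1 reach -5.58 and -7.78 in Myelo-4 over Myelo-2.

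Over cells, the members followed different genes. Among the 3292 genes detected in 25% or more of all cells, those most like Tmpo by Spearman correlation of log2(TPM + 1) over the cells of all gates were Stmn1 (0.61), Kif15 (0.58) and Cdca8 (0.56), which code for a microtubule-destabilising protein, a mitotic kinesin and a subunit of the chromosomal passenger complex. Within the 72 Myelo-2 cells these values were 0.47, 0.45 and 0.42. Those most like Banf1 were Set, a histone chaperone (0.69), Tubb5, a tubulin (0.66), and Ppia, cyclophilin A (0.65), with 0.58, 0.52 and 0.39 in Myelo-2. No gene reached 0.5 with Lbr or with Sun2.

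These correlations are descriptions, since cells of a gate may share a plate and the cells differ in complexity. The number of genes detected per cell itself correlated with Banf1 at 0.66, Tmpo at 0.43, Sun2 at 0.20 and Lbr at 0.18. Summed TPM of 15 mitosis genes correlated with Tmpo at 0.53 over all cells and at 0.37 within Myelo-2, and with Lbr at 0.20 and 0.34. Tmpo and Banf1 correlated with each other at 0.35 over all cells and at 0.18 within Myelo-2. In that class 38 of 72 cells held both, 14 held Tmpo alone and 9 held Banf1 alone.

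Lists of other nuclear envelope genes were counted in the same way, beside the 13.7% of all measured genes higher and the 45.3% lower in Myelo-4. Most of their measured genes passed the filter through Myelo-2 alone, which favours a lower mean in Myelo-4, so these counts describe the lists and support nothing by themselves. Of 12 other genes of the inner nuclear membrane, 5 were measured in Myelo-4 over Myelo-2 of the Ly6g high gate, with 0 higher and 3 lower, and 4 of the 5 passed through Myelo-2 alone. Tmem43, which codes for the membrane protein LUMA, was at 167 against 120.4 TPM, and 1 cell held 57.6% of the Myelo-4 sum. Nrm, the gene for nurim, was at 0.0631 against 38.7 TPM, although 1 cell held 73.9% of the latter sum. Of 5 LINC complex genes 2 were measured: Syne1, the gene for nesprin-1, was at 142 against 89.9 TPM, and Syne2, for nesprin-2, at 0.00385 against 6.32 TPM. Zmpste24, the protease that trims prelamin A, was at 194 against 255 TPM, one of 2 measured genes of lamin processing.

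Of 27 nucleoporin genes, which build the nuclear pore, 9 were measured, with 0 higher and 5 lower, and 8 of the 9 passed through Myelo-2 alone. Nup98 was at 33.4 against 36.9 TPM and Nup85 was listed at 0 in all 13 Myelo-4 cells against a mean of 39.6 TPM. All 5 measured nuclear transport genes of 15 were lower and passed through Myelo-2 alone, among them Kpna2, an importin alpha (0.116 against 391 TPM), and Ran, the GTPase that gives transport its direction (0.169 against 235 TPM).

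Genes of envelope breakdown and reassembly were mixed, with 1 of 7 measured higher and 3 lower. The kinase genes Cdk1 and Plk1 were at 0.0454 against 82.3 TPM and 0.08 against 120.3 TPM. Chmp2a, an ESCRT-III subunit that takes part in sealing the envelope, was at 286 against 177 TPM. The higher gene was Ist1, another ESCRT-III protein, at 221 against 92.1 TPM, and 1 cell held 78.2% of its Myelo-4 sum.

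Of 8 genes for heterochromatin proteins, among them the HP1 partners of the lamin B receptor, 3 were measured, 2 of them through Myelo-2 alone. All 3 were lower: Cbx3, the gene for HP1 gamma, at 140.3 against 1822 TPM, Cbx5, for HP1 alpha, at 0.0215 against 44.5 TPM, and Cbx1, for HP1 beta, listed at 0 in all Myelo-4 cells against a mean of 29.2 TPM, of which 1 cell held 76.5%. Of 16 genes of sterol synthesis, the pathway of Lbr's enzyme activity, 4 were measured, with 1 higher and 3 lower. Of these 4, 3 passed the filter through Myelo-2 alone, 1 through Myelo-4 alone and 0 through both, so the filter favoured a difference for each. All 15 mitosis genes and all 9 measured of 14 replication genes were lower, and each of the 15 mitosis genes passed the filter through Myelo-2 alone. The summed level of the mitosis genes ran from 0 to 3.12 TPM in the 13 Myelo-4 cells and from 3.01 to 5848 TPM in the 27 Myelo-2 cells. Its part in the levels of Tmpo and Banf1 was not tested.

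**Figure D5:**
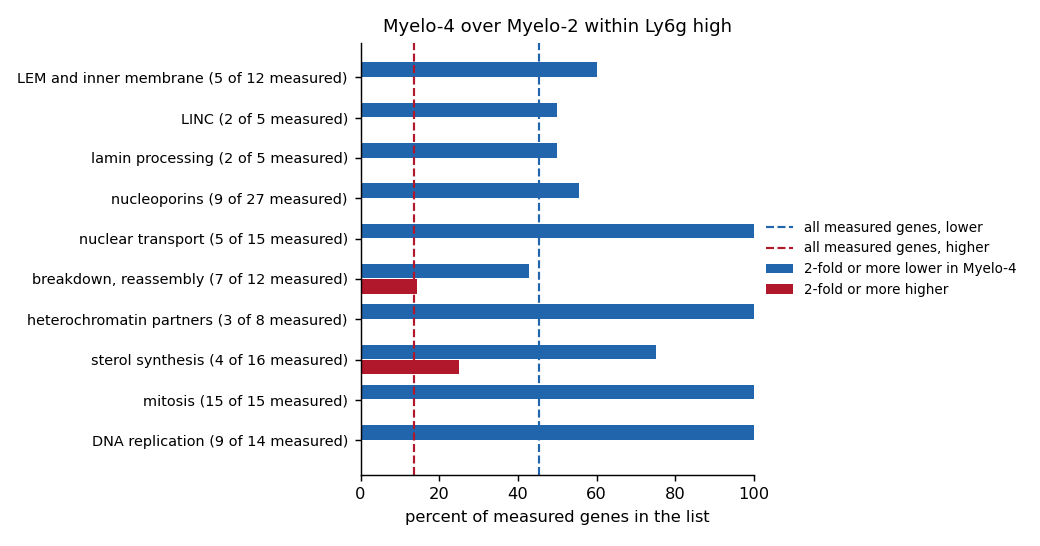
Percent of the measured genes of each list that were 2-fold or more lower (blue) or higher (red) in Myelo-4 than in Myelo-2 of the Ly6g high gate, with dashed lines at 45.3% and 13.7%, the same shares over all measured genes. The mitosis, replication, transport and heterochromatin bars reach 100%, the last on 3 genes.

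The same lists were counted between the Ly6g high and low gates, where 7.96% of all measured genes were higher and 23.7% lower. For Ly6g high over low, 12 of 13 measured replication genes were lower and 0 higher, while 2 of 15 mitosis genes were lower and 1 higher. Of 14 measured nucleoporin genes 5 were lower, of 7 other inner membrane genes 2 were lower, and both LINC genes stayed within 2-fold. Through Ly6g low alone, 7 of the 13 replication and 2 of the 15 mitosis genes passed the filter. So did 11 of the 14 nucleoporin and 4 of the 7 inner membrane genes. That favours a lower mean in Ly6g high, so these counts support nothing by themselves.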

How the data were processed

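Expression was measured in single wild-type mouse marrow cells by SMARTer cDNA synthesis and Nextera XT libraries with 150 bp paired-end reads, per the labels. The submitters' processing notes name Bowtie2, RSEM and mm9, while the versions and the annotation are not given in the sources used here. Values as the authors deposited them are log2(TPM + 1); the unit was read from the values, whose TPM summed to between 999633 and 1005383 per cell. RSEM shares reads between similar transcripts, so pseudogene copies of a gene can take part of its TPM. Read counts were not used here, so the read depth of each cell is unknown and no count test applied. Gates came from the labels and classes from a second deposited table. Of the capture positions, 18, 18 and 19 occurred in both gates of a pair (Ly6g high with low, Ly6g high with CD11b+, Ly6g low with CD11b+), and the highest correlation between 2 cells was 0.884. Doublets were not removed.

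Values were returned to TPM, averaged over cells and compared as log2 ratios after adding 1 TPM (Python 3.11.15, numpy 2.4.6, pandas 2.3.3, scipy 1.17.1). A gene counted as measured where 25% of the cells of one side or more had it at 1 TPM, and as called at 2-fold; no p-value was computed. The code was tested on simulated data. The 8 members are always named. From each of 10 lists (129 of 130 genes were in the table) up to 4 genes with the highest mean TPM were eligible to be named. Like genes are the 3 highest Spearman correlations of a member detected in 25% of cells, named at 0.5 or more. Members and lists were chosen with earlier results of these data known. Alternatives were a pseudocount of 10 TPM, no filter, means of log2 values, rescaling without granule and late neutrophil genes, leaving out the highest cell of each side, cells with 1500 to 3000 genes, and odd- or even-numbered cells. Sequences are RefSeq promoter windows of GRCm38.p6.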

Additional observations from a re-analysis of the deposited data

How the results depend on the processing

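Of 303 log2 ratios recomputed under the alternatives, 259 kept their side of 2-fold, 34 newly passed 2-fold, 6 no longer did and 4 reversed. A ratio counted as reversed only if its sign changed with either value past 2-fold. Changes of sign within 2-fold are among the 259. An example is Banf1 in Ly6g high over low within Myelo-2, at 0.67 by means and -0.24 with means of log2 values. For Lbr 62 of 64 kept their side of 2-fold. The other 2 were HSCP-2 over Myelo-2 with means of log2 values (-1.51) and among cells with 1500 to 3000 genes (-2.30). In Myelo-4 over Myelo-2, Tmpo (-7.30 to -3.55) and Banf1 (-8.05 to -4.34) stayed past 2-fold throughout. The reversals were Sun2 in Myelo-4 over Myelo-2 among cells with 1500 to 3000 genes (1.39, on 3 against 23 cells) and Lmnb2 in Gran-1 and Gran-2 over Myelo-2 with means of log2 values (0.19), without the highest cell of each side (0.58) and among even-numbered cells (1.23); Lmnb2 rests on 2 and 3 positive cells. Counts of members past 2-fold changed by over 1.5 times in 23 of 64 cases. Ly6g high over low went from 0 to 3 with means of log2 values, where the median of all genes was -0.80 against -0.29, and to 1 without the highest cells, among cells with 1500 to 3000 genes and among odd-numbered cells. CD11b+ over Ly6g low went from 1 to 0 with a pseudocount of 10 TPM, to 2 with no filter, with means of log2 values and among even-numbered cells, and to 3 without the highest cells. CD11b+ over Ly6g high went from 0 to 1 with means of log2 values and among even-numbered cells. Within Myelo-2, Ly6g high over low went from 0 to 2 among cells with 1500 to 3000 genes and among odd-numbered cells, and CD11b+ over low from 1 to 2 with no filter, with means of log2 values and among even-numbered cells, and to 3 without the highest cells. Myelo-4 over Myelo-2 went from 2 to 4 with no filter and among cells with 1500 to 3000 genes, Gran over Myelo-2 from 3 to 5 among even-numbered cells, and HSCP-2 over Myelo-2 from 2 to 5 with no filter, among cells with 1500 to 3000 genes and among odd-numbered cells. The cause of these shifts was not tested. Of 48 shares of positive cells, 40 moved by less than their interval. The like-complexity set (1000 to 1700 genes) and the set without Myelo-4 cells were chosen after seeing the data. No paired analysis was possible because no result comes from a test and cell numbers only name cells. The depth of each cell is unknown, and shares on 3 to 16 cells have wide intervals.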
